A study of Mus musculus with 6 samples.

Results

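Open chromatin at 3 genes for orphan nuclear receptors, Esrrb, Nr5a2 and Nr0b1, was compared among mouse embryonic stem cells (ESCs) and 2 kinds of expanded potential stem cells (EPSCs). Members were the ATAC-seq peaks that shared at least 1 bp with a gene or with the 20 kb on either side of it, in the mm9 genome with the GENCODE M1 annotation. They numbered 46 of 125791 peaks, namely 13 of 28965 for ESCs, 15 of 50225 for D-EPSCs and 18 of 46601 for L-EPSCs. Peaks that overlapped across lists were joined into regions, which gave 23 of the 65518 regions of the genome, with 15 at Esrrb, 6 at Nr5a2 and 2 at Nr0b1. ATAC-seq uses the Tn5 transposase to cut accessible DNA, so a peak marks a stretch where cuts piled up.

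All cells were labelled as strain 129SV. The ESCs were the J1 line, kept in serum medium with LIF and 2i, the inhibitors CHIR99021 and PD0325901, on mouse embryonic fibroblast feeders or gelatin. D-EPSCs grew in N2B27-based medium with serum replacement, LIF, CHIR99021, dimethindene maleate and minocycline hydrochloride. L-EPSCs grew in DMEM/F12 with serum replacement, LIF, CHIR99021, PD0325901, A-419259, XAV939, JNK inhibitor VIII and SB203580. LIF and CHIR99021 were thus present in every state, whereas PD0325901 was in the ESC and L-EPSC media and absent from the D-EPSC medium. Both EPSC types were held without feeders before harvest. Each state had 2 technical replicates behind a single peak list, so no value has a replicate error and no comparison below has a replicate test. Sequencing depth is unknown, and the absence of a peak says only that none was called. Intervals are 95% Wilson intervals unless stated otherwise and cover counting error only.

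Nuclear receptors are transcription factors, many of them switched by steroids or other small lipophilic ligands, and orphan receptors are those first found without a known ligand. Esrrb, the estrogen-related receptor beta, is part of the network of factors that keeps mouse ESCs in the naive state. Nr5a2, also called LRH-1, activates Pou5f1 in early embryonic cells and, like Esrrb, binds DNA as a monomer at an estrogen receptor-like core with a short 5′ extension. Nr0b1, also called Dax1, lacks the usual zinc-finger DNA-binding domain and acts mainly by binding other nuclear receptors and repressing them. It is X-linked and is expressed in mouse ESCs.

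The sequences below carry the main observations, and all are from mm9. The first set shows every exact copy of the monomer site TCAAGGTCA, bound by ESRRB and NR5A proteins, inside a region of the 3 genes. All 3 copies lay in intron 3 of Esrrb, and the + strand of chromosome 12 is printed. Capitals mark the site, which reads TGACCTTGA where the copy is on the − strand. Regions are numbered along the chromosome within each gene.
Esrrb region 13, chr12:87842627-87842715: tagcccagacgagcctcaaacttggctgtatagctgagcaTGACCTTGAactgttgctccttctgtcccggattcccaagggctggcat
Esrrb region 13, chr12:87842969-87843057: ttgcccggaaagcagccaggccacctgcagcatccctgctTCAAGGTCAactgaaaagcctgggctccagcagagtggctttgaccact
Esrrb region 14, chr12:87845429-87845517: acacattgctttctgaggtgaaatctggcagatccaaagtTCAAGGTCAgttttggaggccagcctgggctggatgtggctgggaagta

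The second set shows a stretch shortly before a coding start for 3 promoters, on the strand of the gene, because peaks of the lists differed there. Capitals mark the bases inside peaks of both EPSC lists for Esrrb and Nr0b1, where no ESC peak was called. For Nr5a2 they mark the bases inside peaks of all 3 lists.
Esrrb region 3, chr12:87762428-87762593, + strand: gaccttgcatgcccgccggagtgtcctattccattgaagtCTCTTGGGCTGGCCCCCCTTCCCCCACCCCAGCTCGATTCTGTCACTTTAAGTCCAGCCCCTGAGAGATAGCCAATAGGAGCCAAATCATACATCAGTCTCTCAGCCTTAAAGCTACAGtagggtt
Nr0b1 region 1, chrX:83436953-83437102, + strand: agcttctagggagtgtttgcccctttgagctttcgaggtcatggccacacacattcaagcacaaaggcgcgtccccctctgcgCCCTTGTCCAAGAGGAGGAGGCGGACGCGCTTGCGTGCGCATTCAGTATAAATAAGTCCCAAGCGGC
Nr5a2 region 6, chr1:138850367-138850547, − strand: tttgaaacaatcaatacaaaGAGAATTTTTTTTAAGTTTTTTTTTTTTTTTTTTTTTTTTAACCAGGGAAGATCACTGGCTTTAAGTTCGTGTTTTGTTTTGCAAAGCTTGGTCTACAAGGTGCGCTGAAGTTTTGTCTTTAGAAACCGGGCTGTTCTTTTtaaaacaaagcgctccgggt

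The cell type labels were checked against promoter peaks of marker genes. A promoter was counted as open in a list where a peak came within 1 kb of any protein-coding transcript start. Of 6 pluripotent cell markers, 5 had a promoter peak in ESCs and 6 in each EPSC list, the exception being Nanog in ESCs. Over all protein-coding genes the share was 51.5% for ESCs, 63.4% for D-EPSCs and 60.7% for L-EPSCs. Of 6 fibroblast markers, 2 had one in ESCs (Thy1 and Twist2), 4 in D-EPSCs and 1 in L-EPSCs, so promoter peaks alone did not separate the marker sets in every list. A promoter peak is not expression, and what feeder cells contributed was not tested. The ESC list was the shortest of the 3, covering 12.6 Mb, where D-EPSC peaks covered 23.4 Mb and L-EPSC peaks 21.0 Mb, whereas median peak widths over each whole list were 369, 364 and 358 bp.

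Along Esrrb, which spans chr12:87702067-87862578 on the + strand (ENSMUSG00000021255.10), peaks spread over the introns rather than the annotated 5′ end. In the gene and its flanks 10 peaks were from ESCs, 9 from D-EPSCs and 13 from L-EPSCs. None lay in either 20 kb flank. The ESC and D-EPSC counts differed by 1 peak, although the D-EPSC list as a whole was far longer. With flanks of 50 kb both were 10, and with each list limited to its 28965 widest peaks, the length of the ESC list, they were 10 and 6, beside 11 for L-EPSCs. Of 22367 protein-coding genes, 5.77% had more ESC than D-EPSC peaks in the same kind of window, and 21.3% had more L-EPSC than D-EPSC peaks. The 15 regions amounted to 7.48 per 100 kb, and 29.4% of genes were at least as dense, against a median of 4.67 over all genes. Density falls with gene length, and among the 2582 genes of 0.5 to 2 times the length of Esrrb the median was 3.12 per 100 kb and 10.9% were at least as dense.

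The counts at the other receptors were lower. Nr5a2, at chr1:138740161-138857004 on the − strand (ENSMUSG00000026398.8), had 3 ESC, 4 D-EPSC and 4 L-EPSC peaks. Its 6 regions came to 3.83 per 100 kb, near the median of 3.49 of the 3433 genes of comparable length. Nr0b1, at chrX:83437103-83441286 on the + strand (ENSMUSG00000025056.4), had no ESC peak, 2 D-EPSC peaks and 1 L-EPSC peak. Its 2 regions came to 4.53 per 100 kb, against a median of 6.67 among 4607 genes of comparable length. Nr0b1 was therefore the member at which the ESC list was empty. In the whole annotation 5.61% of genes had peaks of both EPSC lists and no ESC peak in the window, and 24.9% had no ESC peak at all.

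**Figure D1:**
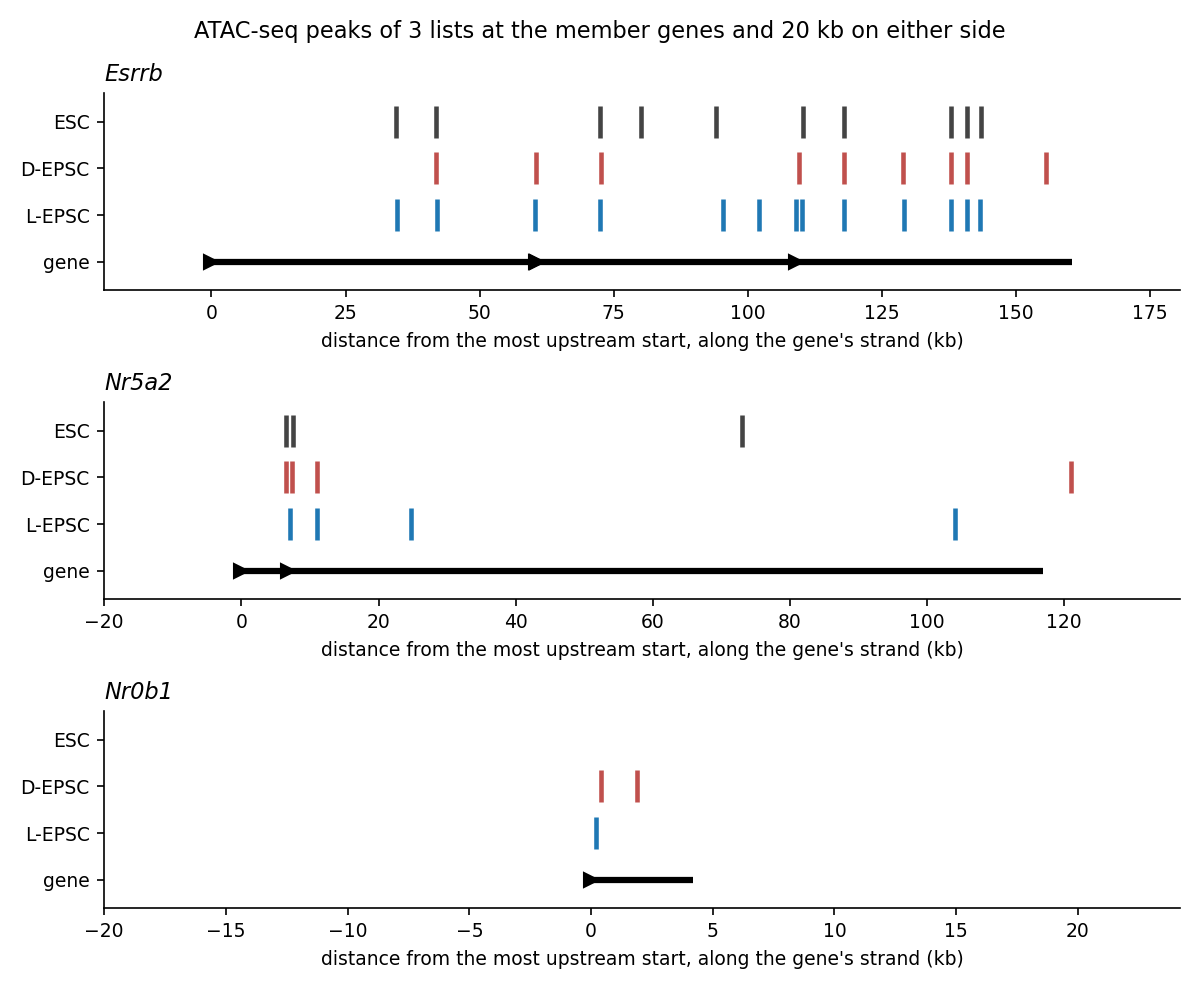
Peaks of the ESC, D-EPSC and L-EPSC lists (ticks, 1 row per list) against distance in kb from the most upstream coding start, read along the strand of each gene. The black bar is the gene and arrowheads are its protein-coding starts. Peaks at Esrrb were spread through the gene from 34380 bp onward, each list had a peak near the downstream start of Nr5a2, and Nr0b1 had EPSC peaks and no ESC peak.

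Peaks covered 1.51% of the Esrrb window in ESCs (3022 bp), 2.27% in D-EPSCs (4558 bp) and 2.89% in L-EPSCs (5799 bp). The D-EPSC list therefore covered more of Esrrb than the ESC list from 9 peaks against 10, since its peaks were wider. Median peak width at Esrrb was 309.5 bp in ESCs (range 171 to 488), 457 bp in D-EPSCs (119 to 1217) and 437 bp in L-EPSCs (148 to 913). At Nr5a2 the covered share was 0.581%, 0.847% and 1.25% in the same order, and at Nr0b1 it was 0%, 2.82% and 1.31%. Over all 3 genes the median width was 264 bp for the 13 ESC peaks (order-statistic interval 182 to 418), 428 bp for the 15 D-EPSC peaks (177 to 751) and 406 bp for the 18 L-EPSC peaks (316 to 575). These intervals overlap one another.

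Each receptor had a promoter peak in both EPSC lists, and Nr5a2 alone had one in the ESC list. Over all protein-coding genes a promoter peak was called in 51.5% for ESCs, 63.4% for D-EPSCs and 60.7% for L-EPSCs, and in all 3 lists for 50.4%. The pattern of Esrrb and Nr0b1, a promoter peak in each EPSC list but not in ESCs, was shared by 9.15% of protein-coding genes and by 7.62% of the 932 on chromosome X. The 3 genes were chosen with earlier results of these data known, so this count was given no test, and at Esrrb it depended on how a promoter was defined.

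Nr0b1 has a single annotated start, at chrX:83437103, and it was covered in both EPSC lists. The D-EPSC peak there was 970 bp wide (chrX:83437031-83438000), and 8.92% of D-EPSC peaks were wider. The L-EPSC peak was 580 bp wide (chrX:83437036-83437615), lay wholly inside the D-EPSC peak, and 26.8% of its list was wider. Both began within the bases printed above, just before the start, and ran into exon 1. ESC peaks came no nearer than 414678 bp, at chrX:83021697-83022425, with a width of 729 bp. A second D-EPSC peak of 275 bp (chrX:83438847-83439121) lay in intron 1, with no counterpart in the other lists. When each list was limited to its 28965 widest peaks, the length of the ESC list, both EPSC promoter peaks of Nr0b1 were still present and the intronic peak was not.

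Esrrb has 4 annotated protein-coding starts, and the lists treated them differently. The most upstream, at chr12:87702067, had no peak within 1 kb in any list, and the nearest peaks lay 34380 bp away in the ESC, 41736 bp in the D-EPSC and 34404 bp in the L-EPSC list. The start shared by 3 shorter transcripts, at chr12:87762594 inside intron 1 of the longest transcript, was the one whose upstream sequence is printed above. An L-EPSC peak of 575 bp (chr12:87762146-87762720) covered it. A D-EPSC peak of 119 bp (chr12:87762468-87762586) ended 8 bp before it. That D-EPSC peak was among the narrowest of its list, with 94.4% wider, while ESC peaks came no nearer than 11686 bp. It was lost at a common minimum width of 128 bp and when lists were limited to their 28965 widest peaks, which left the L-EPSC peak alone at this start. The start of Esrrb-006, at chr12:87762833, lay 247 bp from the same D-EPSC peak and 113 bp from the same L-EPSC peak.

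The most downstream coding start of Esrrb, that of Esrrb-005 at chr12:87811067, lay in the widest region of the 3 genes. This region, number 9 (chr12:87810862-87812575), was 1714 bp long, and 0.752% of all regions were wider. A D-EPSC peak of 1217 bp (chr12:87810964-87812180) covered the start. The L-EPSC list had 2 peaks, of 437 bp over the start (chr12:87810862-87811298) and of 522 bp farther in (chr12:87811961-87812482). The ESC peak of 488 bp (chr12:87812088-87812575) began 1021 bp past the start, just beyond the 1 kb limit, and 93 bp were common to the 3 lists. Whether Esrrb counts as having an ESC promoter peak therefore turned on the definition. It had none at 1 kb from coding starts, but it had one at 2.5 kb. It also had one when starts of all transcripts were used, because an ESC peak of 369 bp lay over the start of the processed transcript Esrrb-004 at chr12:87845359.

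Nr5a2 differed from both in that every list, ESCs included, had a peak within 1 kb of its downstream start. Like Esrrb, it had no peak at its most upstream start in any list. No peak came within 1 kb of chr1:138857004, the start of its longer transcript, the nearest being 6411 bp away in the ESC, 6477 bp in the D-EPSC and 6460 bp in the L-EPSC list. At chr1:138850207, the start of its shorter transcript, the ESC list had peaks of 137 and 207 bp on either side of the start. The D-EPSC list had peaks of 428 and 164 bp, likewise on either side. In the L-EPSC list a single peak of 1172 bp (chr1:138849373-138850544) ran across the start, and 3.58% of L-EPSC peaks were wider. The bases inside peaks of all 3 lists upstream of this start are the capitals printed above, and they include a long run of T.

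**Figure D2:**
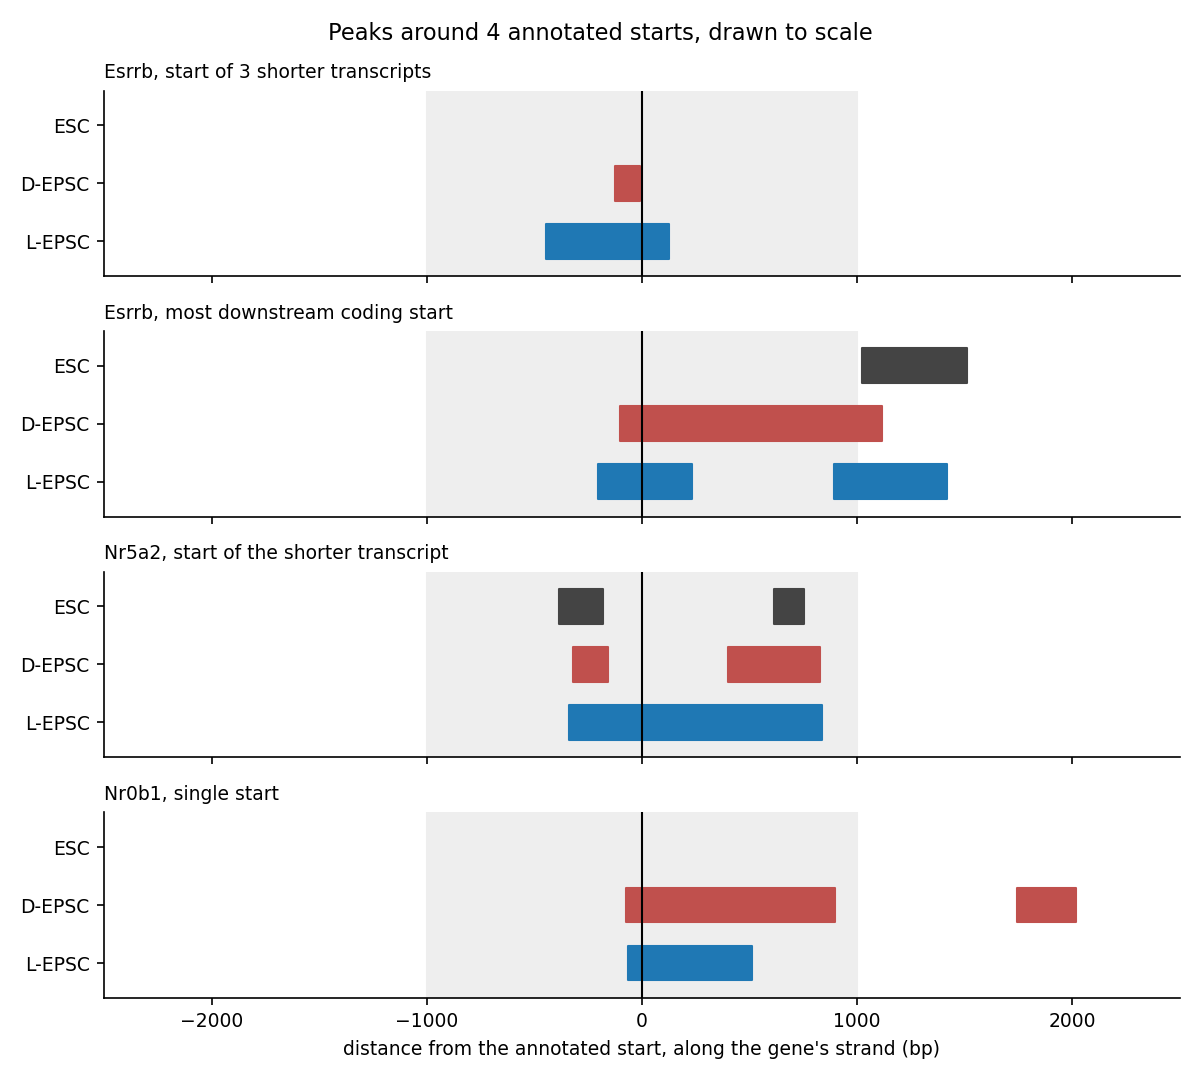
Peaks (bars, to scale) around 4 annotated starts against distance in bp along the strand of the gene, with 1 row per list and the 1 kb limit in grey. At the single start of Nr0b1 the D-EPSC peak of 970 bp and the L-EPSC peak of 580 bp covered the start without an ESC peak, and at the most downstream coding start of Esrrb the ESC peak began 1021 bp away.

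Away from the 4 promoter regions, 18 of the 23 regions lay in introns and 1 lay in a flank, and none of these had its midpoint in an exon. The intronic regions held all of the ESC-only and L-EPSC-only regions and both regions shared by ESCs and L-EPSCs. In Esrrb, 13 intronic regions comprised 5 with peaks of all 3 lists, 1 of both EPSC lists, 2 of ESCs and L-EPSCs, 2 of ESCs, 1 of D-EPSCs and 2 of L-EPSCs. Intron 1 of the longest transcript held 7 of these (regions 1, 2 and 4 to 8), intron 2 held region 10, intron 3 held regions 11 to 14, and intron 6 held region 15. Region 2 (chr12:87743605-87744517) was the widest of them, through an L-EPSC peak of 913 bp, against 264 bp in ESCs and 194 bp in D-EPSCs. Region 4 (chr12:87774280-87775082) showed the opposite emphasis, with 783 bp in D-EPSCs against 374 bp in ESCs and 328 bp in L-EPSCs.

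The regions of Esrrb absent from at least 1 list were mostly narrower. Region 11 (chr12:87830725-87831360) was the widest without an ESC peak, with 457 bp in D-EPSCs against 480 bp in L-EPSCs. Region 14 (chr12:87845139-87845631) was the widest without a D-EPSC peak, with 369 bp in ESCs and 481 bp in L-EPSCs. Region 1 (chr12:87736447-87736748) had the same pair of lists, with 203 and 278 bp. Regions 5 and 6 were found in ESCs alone, with peaks of 355 bp (chr12:87781935-87782289) and 198 bp (chr12:87796062-87796259). Regions 7 and 8 were found in L-EPSCs alone, with 307 bp and 148 bp, and region 15 in D-EPSCs alone, with 177 bp. None of these 5 single-list peaks was wider than the median peak of its own list.

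In Nr5a2, the intronic regions were unequally divided. Region 3 (chr1:138783705-138784271), in intron 7, was an ESC peak of 567 bp without a peak in either EPSC list. It was the widest ESC peak at the 3 genes, and 24.9% of ESC peaks were wider. Region 5 (chr1:138845675-138846250), in intron 2, had peaks of 576 bp in D-EPSCs against 351 bp in L-EPSCs and none in ESCs. Regions 2 and 4, of 316 and 121 bp, were found in L-EPSCs alone, and region 1, a D-EPSC peak of 160 bp (chr1:138735925-138736084), lay past the 3′ end of the gene.

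To compare the states where all 3 lists had a peak, the bases covered by each list were set side by side in the 7 shared regions. ESC peaks covered the fewest bases in 5 of the 7, and among all 21752 regions of this kind they did so in 59.5%. The exceptions were regions 2 and 4 of Esrrb. Region 12 of Esrrb (chr12:87839653-87840169) had the largest D-EPSC to ESC ratio, 3.01, with 171 bp in the ESC, 514 bp in the D-EPSC and 366 bp in the L-EPSC list. Region 10 (chr12:87819766-87820195) had 182, 346 and 375 bp, and region 13 (chr12:87842558-87843308) had 418, 751 and 589 bp in the same order. At the Nr5a2 promoter, region 6 (chr1:138849373-138850593), the lists covered 344, 592 and 1172 bp, an L-EPSC to ESC ratio of 3.41.

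The median ratio over the 7 regions was 1.9 for D-EPSCs to ESCs and 2.06 for L-EPSCs to ESCs, where the medians over all regions of 3 lists were 1.26 and 1.22. Ratios at the 7 regions ranged from 0.735 to 3.01 for D-EPSCs and from 0.877 to 3.46 for L-EPSCs. The EPSC excess in width was therefore not uniform, even along 1 gene.

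**Figure D3:**
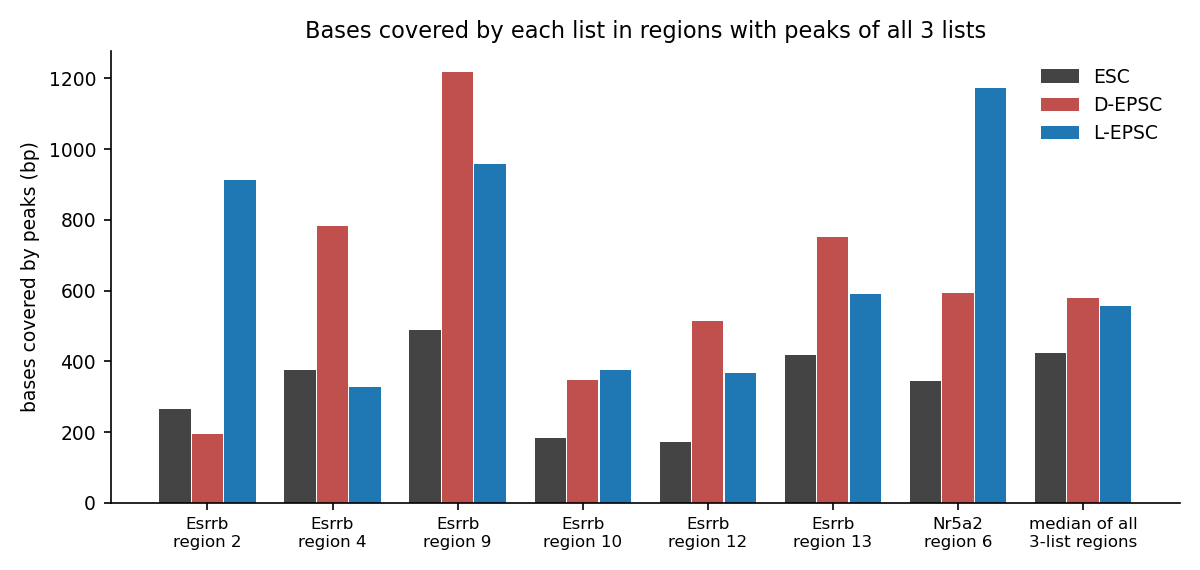
Bases covered by peaks (bp) of the ESC, D-EPSC and L-EPSC lists in the 7 regions with peaks of all 3 lists, and the median over the 21752 such regions of the genome (right). Each bar is 1 list, without a replicate error. ESC bars are the lowest in 5 regions, while D-EPSCs are lowest in region 2 and L-EPSCs in region 4 of Esrrb.

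The combinations of lists over the 23 regions had shares that differed from those of the genome by less than counting error. All 3 lists had a peak in 7 regions (30.4%, interval 15.6 to 50.9), against 33.2% of all regions. Both EPSC lists without ESCs accounted for 4 regions (17.4%, 6.98 to 37.1), against 18.4%. ESCs and L-EPSCs without D-EPSCs shared 2 regions (8.70%, 2.42 to 26.8), against 2.92%. ESCs and D-EPSCs without L-EPSCs shared 0 of the 23 regions (0 to 14.3%), against 2.3%.

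The single-list regions numbered 3 for ESCs (13%, 4.54 to 32.1), against 5.12% of all regions. D-EPSCs alone also had 3, against 22.3%, and L-EPSCs alone had 4 (17.4%), against 15.8%. Altogether 9 of the 23 regions (39.1%) lacked a D-EPSC peak, where 23.8% of all regions did. A D-EPSC peak was present in 14 regions (60.9%, 40.8 to 77.8), against 76.2% of all regions, an ESC peak in 12 (52.2%, 33.0 to 70.8), against 43.5%, and an L-EPSC peak in 17 (73.9%, 53.5 to 87.5), against 70.2%. Each genome share lay inside the interval of the share over the 23 regions.

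**Figure D4:**
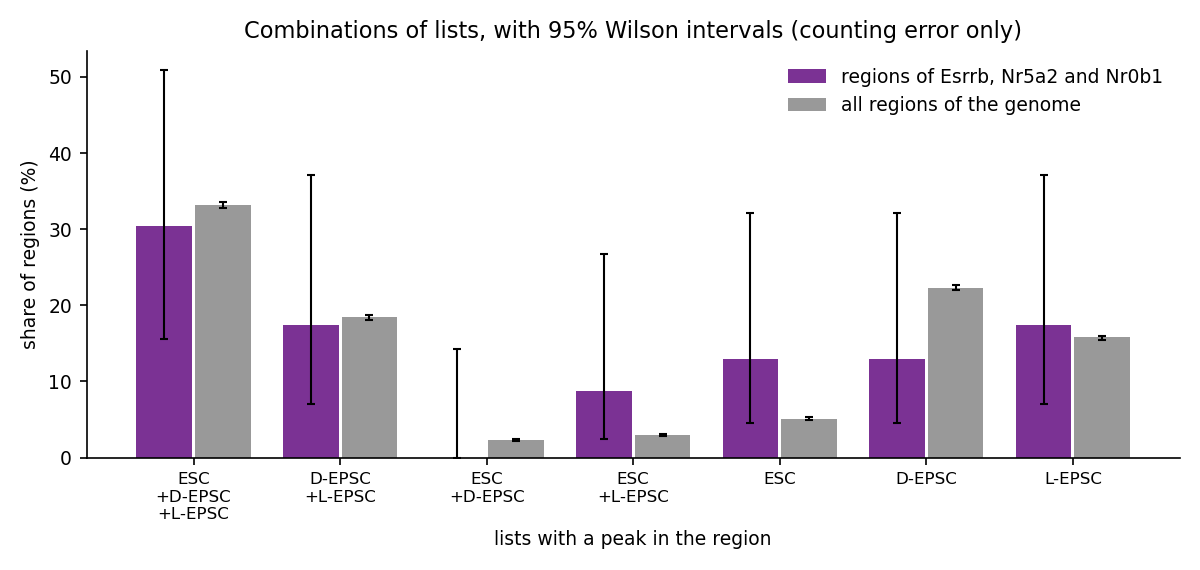
Share of regions (%) in each of the 7 combinations of lists, for the 23 regions of Esrrb, Nr5a2 and Nr0b1 (purple) and for all 65518 regions (grey), with 95% Wilson intervals for counting error. The purple intervals are wide, and each spans the grey bar beside it.

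To ask which transcription factor sites the regions held, 6 short motifs were searched without mismatch on both strands. They were the ESRRB and NR5A monomer site TCAAGGTCA, the octamer ATGCAAAT of POU factors, the SOX site AACAATGG, the KLF site CCACACCC, the TCF/LEF site ATCAAAGG and the STAT site TTCCNGGAA. The monomer site was in 2 of the 23 regions (8.70%, 2.42 to 26.8), both in intron 3 of Esrrb, against 1.65% of all regions. This interval lay above the genome share, and it was not adjusted for the 6 motifs. Within the central 200 bp it was again in 2 of 23, against 0.795%. The members' regions had a median width of 493 bp, against 385 bp over all regions, and what width adds to the whole-region share was not tested.

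Region 13 held the monomer site at chr12:87842667-87842675 on the − strand and at chr12:87843009-87843017 on the + strand. Both copies lay inside the peaks of all 3 lists. In region 14 the copy at chr12:87845469-87845477 lay inside the ESC and L-EPSC peaks, and no D-EPSC peak was called there. The whole window of Esrrb had 13 copies, of which these 3 were inside regions that make up 4.15% of it. The windows of Nr5a2 and Nr0b1 had 2 copies each and none in a region. A match is a string of letters, and binding was not measured.

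The octamer was in 2 of the 23 regions (8.70%, 2.42 to 26.8), against 3.19% of all regions, and both were in intron 2 of Esrrb. Within the central 200 bp it was in 1 of 23 (4.35%), against 1.69%. They are printed because the lists differ between them, with capitals for the octamer or its complement on the + strand of chromosome 12. The copy in region 10 was inside peaks of all 3 lists, whereas that in region 9 was inside the D-EPSC and L-EPSC peaks and outside the ESC peak.
Esrrb region 9, chr12:87811956-87812043: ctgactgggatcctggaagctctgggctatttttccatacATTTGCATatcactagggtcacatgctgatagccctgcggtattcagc
Esrrb region 10, chr12:87819950-87820037: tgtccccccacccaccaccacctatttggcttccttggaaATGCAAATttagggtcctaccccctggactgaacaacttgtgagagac

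The KLF site was in 3 of the 23 regions (13%, 4.54 to 32.1), against 7.87%, namely regions 8, 13 and 14 of Esrrb. The TCF/LEF site was in 1 (4.35%, 0.772 to 21.0), against 1.6%. Its copy lay in the ESC-only region 3 of Nr5a2, and is shown in capitals, as its complement, because no EPSC peak was called around it. The SOX site (2.12% of all regions) and the STAT site (1.78%) were in none of the 23, which allows a share of up to 14.3%.
Nr5a2 region 3, chr1:138784062-138784149, − strand: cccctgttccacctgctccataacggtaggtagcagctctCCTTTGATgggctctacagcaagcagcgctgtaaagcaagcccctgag

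Base composition varied among the regions without a common shift from the genome. The median GC content was 53.2% over the 23 regions and 53.5% over all regions, and the ratio of observed to expected CpG was 0.259 against 0.292. The promoter of Nr0b1 was the most GC-rich, at 64.5%, with a CpG ratio of 0.625. The promoter of Nr5a2 had a CpG ratio of 0.616 at a GC content of 50.1%. The lowest GC content, 38.9%, belonged to the ESC-only region 6 of Esrrb, and 99.2% of all regions were higher.

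Genes with the most similar pattern were found from the numbers of regions of the 7 combinations in the gene and its flanks. For Esrrb the smallest sum of differences was 4, reached by 8 genes, of which Itgb5, Capzb and 4933426M11Rik were nearest in length. For Nr5a2, 9 genes had identical numbers, among them Lama1 and Igfbp7. For Nr0b1, 148 genes had identical numbers. Likeness was measured over 7 counts from 3 lists.

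Other genes of the same families and network were described by their promoter peaks. Among 4 relatives, Esrra, the estrogen-related receptor alpha, had promoter peaks in all 3 lists, of 600 bp in the ESC, 969 bp in the D-EPSC and 959 bp in the L-EPSC list. Esrrg, the gamma receptor, had narrow ones in the EPSC lists, of 173 and 122 bp, and none in ESCs. Nr5a1, the steroidogenic relative of Nr5a2, had one in L-EPSCs, of 360 bp, and Nr0b2, the relative of Nr0b1 also called SHP, had one in D-EPSCs, of 239 bp. The relatives with a promoter peak were thus 1 of 4 for ESCs and 3 of 4 for each EPSC list, against 51.5%, 63.4% and 60.7% of all protein-coding genes for ESCs, D-EPSCs and L-EPSCs.

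Of 9 nuclear receptor coregulators, 7 had a promoter peak in ESCs and 8 in each EPSC list, against 51.5% of all protein-coding genes for ESCs, 63.4% for D-EPSCs and 60.7% for L-EPSCs. Ppargc1a, a metabolic coactivator, had none in any list. Kdm1a, a histone demethylase, had a promoter peak of 168 bp in the ESC, 895 bp in the D-EPSC and 911 bp in the L-EPSC list. Ncoa3, a coactivator that Esrrb binds in ESCs, had ESC and L-EPSC promoter peaks of 677 and 959 bp and D-EPSC peaks of 1161 and 119 bp.

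Of 14 other genes of the naive network, 13 had a promoter peak in all 3 lists, where 50.4% of all genes did, and 1, Nanog, in both EPSC lists alone, with 435 bp in D-EPSCs against 238 bp in L-EPSCs. Nanog thus had the combination of promoter peaks seen at Esrrb and Nr0b1. Klf4, which binds CACCC-type sites, had promoter peaks of 424, 990 and 860 bp in ESCs, D-EPSCs and L-EPSCs. Tfcp2l1, a target of LIF signalling, had 352, 661 and 637 bp in the same order. The ESC peak was not the narrowest throughout the network. At Klf2 the widths were 929, 788 and 848 bp, and at Stat3 1289, 1229 and 653 bp, so that ESCs had the widest peak at both.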

How the data were processed

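ATAC-seq libraries were sequenced from ESCs, D-EPSCs and L-EPSCs, with 2 technical replicates per state. Per the study's methods and the submitters' processing notes, the authors trimmed reads with Trim Galore 0.6.3, aligned them to mm9 with Bowtie2 2.3.5, filtered them with SAMtools 1.10 to proper pairs above a mapping quality limit and called peaks with MACS at default settings. Pooling of replicates, duplicate removal, the shift for Tn5 and filtering of blacklisted regions are not given in the sources used here. Missing removal or shifts could change weak peaks and peak edges. The deposited lists hold chromosome, start, end and name, with no score, signal or count, so width was the only size of a peak.

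Peaks on chromosomes 1 to 19 and X were merged into regions where at least 1 bp was shared, and 2 peaks per list on other sequences were left out. Every peak end lay within the NCBIM37 (mm9) chromosome lengths. A promoter was 1 kb on either side of a protein-coding start, and other positions came from region midpoints. All 3 members and every listed gene were in the annotation, Tfcp2l1 as Tcfcp2l1. Regions named were the promoter regions, the widest regions of all, without ESCs and without an EPSC list, and those with TCAAGGTCA. Other regions and genes were named after their values were seen. A coregulator gene and a gene of similar pattern are not reported here. The members and lists were chosen with earlier results of these data known.

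The tools were bedtools 2.31.1, scipy 1.17.1, pandas 2.3.3 and numpy 2.4.6, under Python 3.11.15. All 4 steps tested on simulated data gave the known answer. Alternatives were flanks of 5 and 50 kb, merging within 500 bp, promoters of 500 bp and 2.5 kb, starts of all transcripts, a common minimum width of 128 bp, the 28965 widest peaks of each list, and motifs in the central 200 bp.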

Additional observations from a re-analysis of the deposited data

How the results depend on the processing

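No paired analysis was possible because each state has a single list, and no replicate could be left out for the same reason. Of 86 values recomputed for the main results, 82 moved by less than their counting error or by under 1.5 times, 4 moved and 0 reversed. When lists were limited to their 28965 widest peaks, Nr0b1 kept 1 region in place of 2, and the share of members' regions with a D-EPSC peak alone went to 0% from 13%, because narrow D-EPSC peaks left the list. The share with an ESC peak alone was then 22.2% in place of 13%. This setting shortens the EPSC lists and leaves the ESC list whole. No share over all regions is given for it, so neither change can be called particular to these genes. An ESC promoter peak at Esrrb was present (1) rather than absent (0) with promoters of 2.5 kb and also 1 with starts of all transcripts. Of 63 further values, 4 moved. D-EPSC peaks at Nr5a2 fell to 2 and at Nr0b1 to 1 with the widest peaks. In the central 200 bp the KLF site was in 4.35% of members' regions, against 3.86% of all regions. The TCF/LEF site was there in 0%, against 0.698%. By peaks per list instead of combinations, the genes most like Esrrb were Itpk1, Tex14 and Vps13d, while 309 genes matched Nr5a2 and 161 matched Nr0b1. Depth, absent from the lists, limits every statement on a missing peak.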
